A study of Arabidopsis thaliana with 3 samples.

Results

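The subject here is the ATG8 autophagy family of Arabidopsis thaliana, read in leaves of plants that overexpress the transcription factor WIN1. The members are the probe sets that the array annotation pairs with ATG8B, ATG8C, ATG8D, ATG8E or ATG8F. There are 5 such genes, each read by 1 of the 8247 probe sets on the array. The probe sets paired with 1 gene and matched to a locus cover 3592 genes. A probe set is a cluster of short probes against the same transcript, and it yields a single value per array. Of the 3 arrays, 2 formed the WIN1 group, from 35S:WIN1 line 13 and 35S:WIN1 line 22, in which WIN1 is driven by 35S, a promoter from cauliflower mosaic virus that is active in most tissues. Each of these arrays held leaf RNA pooled over several T2 plants of the line. The control group had 1 array, titled 35S:WIN1 WT control, of leaf RNA pooled over several plants. The title calls the control WT, while its plants are described as carrying an empty binary vector. By that description a vector insertion was common to every plant. Neither the age nor the accession of the plants is given in the sources used here. Pooling left 1 measurement per line and no replicate of the control, and errors below are the SD between the 2 lines. In pooled leaf RNA, fewer cells of a type and less RNA per cell cannot be told apart.

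ATG8 proteins are small proteins with the fold of ubiquitin. The protease ATG4 trims them to expose a terminal glycine, and the enzymes ATG7 and ATG3 then join that glycine to the lipid phosphatidylethanolamine. In this form ATG8 coats the growing autophagosome, the vesicle that carries cytoplasm to the vacuole for breakdown, and binds the receptors that bring cargo to it. Plants have several ATG8 genes where yeast has a single one, and their transcripts are known to accumulate in starved and senescing leaves. By sequence, ATG8A to ATG8D form a subgroup of the Arabidopsis family, ATG8E to ATG8G another, and ATG8H and ATG8I the most distant pair.

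Because the deposited medians differed (70.2 for line 13, 35.2 for line 22, 84.1 for the control), each array was first brought to the same trimmed mean. Of the 8247 probe sets, 5773 were bright enough to be kept, and all 5 ATG8 probe sets were among them. The 5 matched leaf genes on the marker list (LHCB4.1, PSAE1, RCA, PRK and SBPASE, all of photosynthesis) were bright on every array, at scaled intensities of 523 or more. The markers of flower, seed and root on the same lists were paired with no probe set and were not analysed here. The WIN1 locus, AT1G15360, had no paired probe set, and the overexpression itself was not checked. Line 22 differed from the control more widely than line 13 did. Over the kept probe sets the SD of the log2 ratio to the control was 0.936 in line 22 and 0.401 in line 13. Probe sets that share a gene also disagreed more on the line 22 array. Across 108 genes with several probe sets, their SD reached 1.12 for line 22, against 0.216 for line 13. No ATG8 ratio in line 22 was as large as that 1.12. With 1 probe set per member, this disagreement could not be measured for the ATG8 genes, and its cause was not tested.

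The question for the family was whether ATG8 transcripts differed between WIN1 overexpressors and the empty-vector plants. No ATG8 transcript was shown to differ. Their log2 ratios to the control ranged from -0.28 (ATG8F) to 0.0045 (ATG8D) in line 13, and in line 22 they ranged from -0.60 (ATG8D) to 0.49 (ATG8E). None of the 5 passed limma at an adjusted p of 0.05, where 0.0346% of kept probe sets did, and none had an unadjusted p under 0.05, where 2.23% did. None was at least 2-fold apart from the control in the same direction in both lines, against 1.42% of kept probe sets. With a background this low, a count of 0 among 5 probe sets says little about the family.

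ATG8B (AT4G04620, probe set 13110_at) gave a scaled intensity of 74.6 for line 13 and 64.3 for line 22, against 74.9 for the control. Both lines lay below the control, line 13 only slightly, and the mean log2 ratio was -0.09 ± 0.12 (SD, n = 2 lines; limma adjusted p = 0.9999). Log2 ratios to the control are taken after a pseudocount, 18.6 under this scaling, was added to the intensity. Each alternative scaling has its own pseudocount, and the comparison of members with each other on deposited intensities has none. A pseudocount draws the ratios of dim probe sets towards 0. ATG8B was the dimmest of the 5 probe sets, and the pseudocount therefore weighs most on it. ATG8B also changed side with the scaling: its mean ratio was 0.06 with a common median and 0.07 after quantile normalization.

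ATG8C (AT1G62040, probe set 17372_at) was read at 189 (line 13) and 133 (line 22) scaled units, against 206 on the control array. Both lines lay below the control, and line 22 lay further below. The log2 ratios were -0.11 in line 13 and -0.57 in line 22, a mean of -0.34 ± 0.32 (limma adjusted p = 0.9999). This was the member with the lowest mean ratio under this scaling (after quantile normalization ATG8F was lower, -0.34 against -0.21), equal to 0.791 of the control on the pseudocount scale, and its limma interval (95%) ran from 0.281 to 2.22 times the control.

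ATG8D (AT2G05630, probe set 15004_at) was read at 129 (line 13) and 78.0 (line 22) scaled units, against 128 on the control array. Line 13 and the control were nearly the same, and line 22 was the low array. The log2 ratios were 0.0045 in line 13 and -0.60 in line 22, a mean of -0.30 ± 0.43 (limma adjusted p = 0.9999). Under this scaling the value in line 22 was the lowest of the 5 members in either line, yet 46.3% of kept probe sets lay at least as far from the control in that line.

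ATG8E (AT2G45170, probe set 18601_s_at) is often used as a fluorescent fusion to mark autophagosomes in plant cells. Its scaled intensity was 1110 for line 13 and 1863 for line 22, against 1320 for the control. The lines lay on opposite sides of the control, with log2 ratios of -0.25 and 0.49, a mean of 0.12 ± 0.52 (limma adjusted p = 0.9999). It was the only one of the 5 with a mean above the control, and that mean turned to -0.06 after quantile normalization and to -0.45 on the deposited values without scaling. In line 22, 55.4% of kept probe sets lay at least as far from the control as ATG8E did. The ending _s_at marks a probe set whose probes can match more than 1 transcript, although the annotation pairs it with ATG8E alone, so a contribution from a close relative cannot be told apart from ATG8E.

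ATG8F (AT4G16520, probe set 18230_at) was read at 1060 (line 13) and 1166 (line 22) scaled units, against 1292 on the control array. Both lines lay below the control under this scaling, with log2 ratios of -0.28 and -0.15, a mean of -0.21 ± 0.096 (limma adjusted p = 0.9999). With a common median its lines lay on opposite sides of the control (-0.34 in line 13 and 0.27 in line 22). In line 13 it was the ATG8 member furthest from the control, and 33.6% of kept probe sets lay at least as far there.

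**Figure D1:**
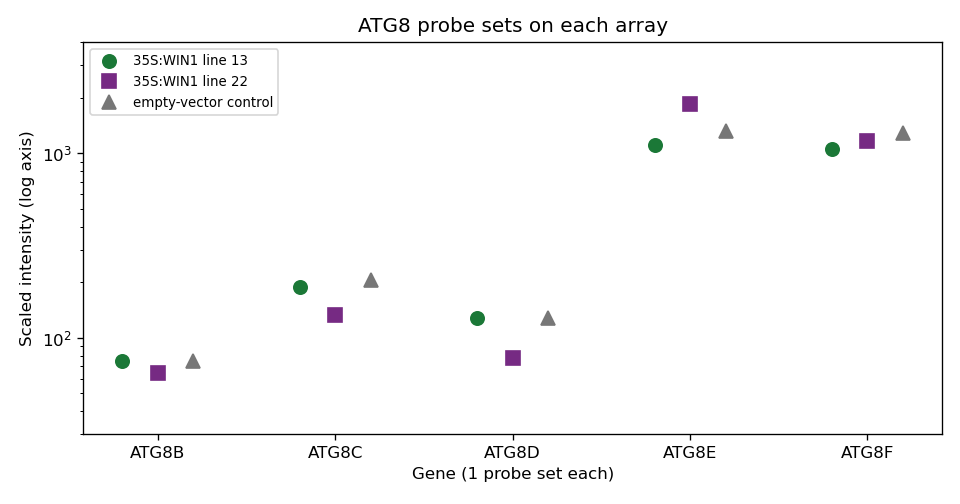
Scaled intensity (log axis) of the 5 ATG8 probe sets, with line 13 (circles), line 22 (squares) and the control (triangles) from left to right for each gene. Of the 3 arrays, line 22 is lowest for ATG8B, ATG8C and ATG8D (64.3, 133 and 78.0) and highest for ATG8E (1863). Heights of different genes come from different probes and give no order of transcript abundance.

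The deposited intensities, before any scaling, put every member below the control in both lines. ATG8B was deposited at 76.0 and 45.8 for lines 13 and 22, against 94.98 for the control. ATG8C had 193 and 94.8, against 261 in the control, and ATG8D had 131 and 55.6, against 163. ATG8E had 1131 and 1327 in the lines, against 1675 in the control, and ATG8F had 1080 and 831, against 1640. The arrays as a whole showed the same shift: without scaling, the median over kept probe sets was -0.27 for line 13 and -0.78 for line 22, in log2 units. With a common median for all probe sets, the kept ones had a median of -0.04 for line 13 and 0.26 for line 22. Against the medians without scaling, the unscaled ratios of the members ran from -0.59 (ATG8F) to -0.27 (ATG8B) in line 13 and from -1.31 (ATG8C) to -0.33 (ATG8E) in line 22.

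After scaling, 3 members (ATG8B, ATG8C and ATG8F) lay below the control in both lines and none lay above it in both. With a common median these were ATG8C and ATG8D, and after quantile normalization ATG8C and ATG8F. Over all kept probe sets 30.4% lay below the control in both lines and 27.1% above it in both. Over the 5 members the median ratio (log2) was -0.11 for line 13 and -0.17 for line 22, beside 0.01 and -0.09 over all kept probe sets. The share of members more than 2-fold from the control was 0 of 5 in line 13 (background 2.74%) and 0 of 5 in line 22 (background 23.8%).

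The precision of the test is wide. The limma standard error of a member's mean log2 ratio lay between 0.722 (ATG8F) and 0.751 (ATG8D), since it was pooled over the table from how far the 2 lines lay apart. For ATG8E the interval ran from 0.402 to 2.95 times the control, for ATG8F from 0.319 to 2.33, for ATG8D from 0.289 to 2.29 and for ATG8B from 0.344 to 2.57. A 2-fold difference in either direction therefore lay inside the interval of every member, and a p that misses the threshold does not show that the transcripts were alike in the WIN1 lines and the control.

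**Figure D2:**
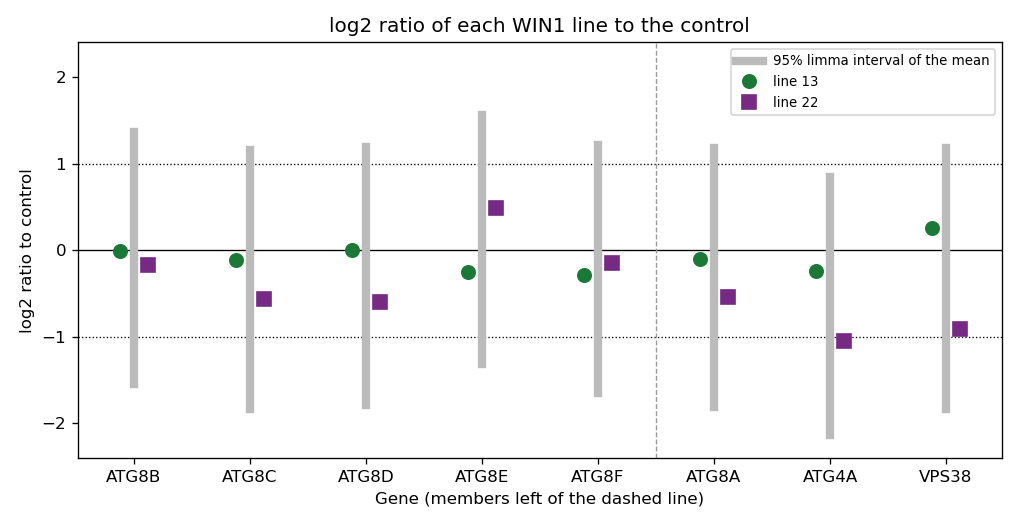
log2 ratio to the control of line 13 (circles) and line 22 (squares) for the 5 members, left of the dashed line, and for 3 other autophagy genes; grey bars are 95% limma intervals of the mean over lines, and dotted lines mark 2-fold. Every bar crosses 0, the members' circles lie between -0.28 and 0.0045, and the squares spread from -0.60 (ATG8D) to 0.49 (ATG8E).

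The lines were then set against each other, a description with no replicate check since each line had 1 array. Each member also rested on 1 probe set, where probe sets sharing a gene had an SD of 1.12 for line 22 ratios. Line 13 minus line 22 gave log2 differences of 0.61 for ATG8D, 0.46 for ATG8C, 0.17 for ATG8B, -0.14 for ATG8F and -0.74 for ATG8E. ATG8D, ATG8C and ATG8B were thus higher in line 13, and ATG8F and ATG8E higher in line 22. For ATG8B this order turned with a common median (-0.05 in line 13 and 0.16 in line 22) and after quantile normalization (-0.03 and 0.16). For ATG8F it turned after quantile normalization (-0.28 and -0.40) and on the deposited values (-0.59 and -0.97). None of the 5 differed 2-fold between the lines, where 21.9% of kept probe sets did. With a common median ATG8E passed 2-fold between the lines, as the line 22 ratio became 0.91 and the line 13 ratio -0.30. On the deposited values ATG8D passed it, with -0.28 in line 13 and -1.30 in line 22.

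The members were also set against each other. The ratio of 1 member to another within an array does not depend on a factor that scales the whole array. The 10 pairs of members were therefore compared on the deposited intensities, without a pseudocount. In line 13 the ratio between 2 members differed from the same ratio in the control by at most 0.29 log2 units, and none of the 10 pairs exceeded 0.5. In line 22 the largest shift was 1.21, for ATG8E over ATG8D, followed by 1.13 for ATG8E over ATG8C, and 5 of the 10 pairs exceeded 0.5. After quantile normalization, which is no single factor, these shifts were 0.42 and 0.44, and 2 of the 10 pairs were over 0.5 in line 22. They were ATG8F over ATG8B (-0.56, from 0.07) and ATG8F over ATG8E (-0.54, from -0.65). Only ATG8F over ATG8E was thus over 0.5 in size both ways. The quantile values also include a pseudocount, and its share in the changed shifts was not separated from that of the normalization. Among all pairs of kept probe sets with values above 0, 37.4% exceeded 0.5 in line 13 and 72.9% in line 22. These shares were also taken on deposited intensities without a pseudocount. The 10 pairs share 5 probe sets and 1 control array, so they are not independent, and this unequal change was not tested. It was also not separated from the disagreement between probe sets that share a gene, an SD of 1.12 for scaled line 22 ratios.

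Subgroup and probe brightness ran together among the members. ATG8B, ATG8C and ATG8D had ratios of -0.17, -0.57 and -0.60 in line 22, and ATG8E and ATG8F had 0.49 and -0.15. The probe sets of ATG8E and ATG8F were in the brightest 20% of kept probe sets, whose median log2 ratio in line 22 was 0.29. Those of ATG8C and ATG8D were in the middle 20%, with a median of -0.24, and that of ATG8B in the next dimmer 20%, with a median of -0.25. In line 13 the medians of these brightness classes lay between -0.02 and 0.04. Subgroup and probe brightness cannot be told apart with 5 probe sets. Quantile normalization, which gives all arrays one distribution of intensities, brought ATG8E in line 22 to 0.14 and ATG8F to -0.40. ATG8B was then at 0.16, ATG8C at -0.30 and ATG8D at -0.28 in that line, so the members were no longer ordered by subgroup.

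**Figure D3:**
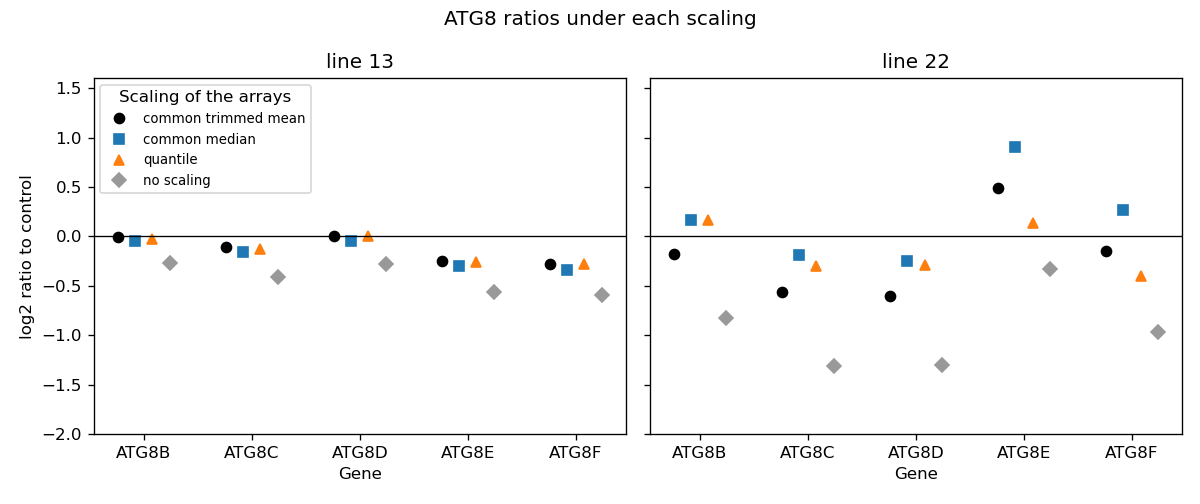
log2 ratio to the control of each ATG8 gene in line 13 (left panel) and line 22 (right panel), with a marker for each way of scaling the arrays. In line 13 the 3 scaled versions nearly coincide, and in line 22 the ratio of ATG8E runs from -0.33 without scaling to 0.91 with a common median.

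A further ATG8 gene was on the array under its older symbol APG8A. ATG8A (AT4G21980, probe set 17376_at), of the subgroup of ATG8B to ATG8D, was read at 135 (line 13) and 94.8 (line 22) scaled units, against 146 on the control array. Its log2 ratios of -0.10 and -0.54 were near those of ATG8C, and it did not pass the test (limma adjusted p = 0.9999). ATG8G, ATG8H and ATG8I were paired with no probe set in the table used here and were not analysed, so 6 of the 9 ATG8 genes were read.

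Of the 50 autophagy genes on the list, 9 matched a probe set, and these included the 5 members and ATG8A. The other 3 were ATG4A, VPS38 and ATG1C. Of the 9, 8 were kept, and 0 were called higher and 0 lower by limma, where 0.0346% of all kept probe sets were called. At this background, a count of 0 says little about the list. The median of the 8 ratios (log2) was -0.10 for line 13 and -0.55 for line 22, beside 0.01 and -0.09 over all kept probe sets. Of the 8, 6 were ATG8 genes, so this median is not separate from the values above. No gene of the ATG9 cycle, of the cargo receptors or of the upstream regulators on the list was matched.

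ATG4A (AT2G44140), the protease that trims ATG8 and later frees it from lipid, was read at 227 (line 13) and 121 (line 22) scaled units, against 271 on the control array. Both lines lay below the control, with log2 ratios of -0.24 and -1.05, a mean of -0.65 ± 0.58 (limma adjusted p = 0.9999). It was past 2-fold in line 22, as 23.8% of kept probe sets were, but not with a common median (-0.67) or after quantile normalization (-0.78). VPS38 (AT2G32760), a subunit of the lipid kinase complex that makes phosphatidylinositol 3-phosphate, was read at 252 and 103 for lines 13 and 22, against 209 for the control. Its lines lay on opposite sides of the control (0.25 and -0.91). ATG1C (AT2G37840), a protein kinase of the complex that starts autophagosome formation, was too dim to be kept: line 13 gave 34.0 and line 22 a negative value, against 25.1 on the control array.

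The surroundings of autophagy in the leaf were read by few probe sets. None of the 12 genes on the list of ubiquitin and its relatives was matched. Of the 9 vacuolar proteases, 5 were matched and 3 kept, and 0 passed limma in either direction (background 0.0346%). GAMMA-VPE, a vacuolar processing enzyme, was read at 885 and 419 scaled units for lines 13 and 22, against 1086 on the control array, which made its log2 ratios -0.29 and -1.34. The carboxypeptidase SCPL49 had log2 ratios of -0.37 and 0.32, and the aspartic protease APA1 had -0.06 and -0.36. Of the 12 senescence genes, 2 were matched, WRKY53 (1.07 and 0.23) and WRKY6 (0.20 and 0.15), and neither passed limma. The 7 kept probe sets of the leaf marker genes had median ratios (log2) of -0.02 for line 13 and 0.74 for line 22. Their part in the ATG8 values was not tested.

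By Euclidean distance in the pair of log2 ratios (line 13, line 22), each member was matched to its nearest gene outside the lists, among 2578 kept probe sets paired with 1 gene. These were AT3G15450 for ATG8B, AT1G79210 for ATG8C, FEY for ATG8D, GLX2-1 for ATG8E and AT4G36140 for ATG8F. GLX2-1, a glyoxalase, had log2 ratios of -0.22 and 0.52. The likeness rests on 2 ratios that share 1 control array, and between 19 (ATG8E) and 52 (ATG8B) of the 2578 probe sets lay within a distance of 0.1, so these names describe near ties. A second kept probe set of FEY had -0.07 and -2.55, and one of AT4G36140 had -0.21 and 0.90, far from ATG8D and ATG8F in line 22.

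**Figure D4:**
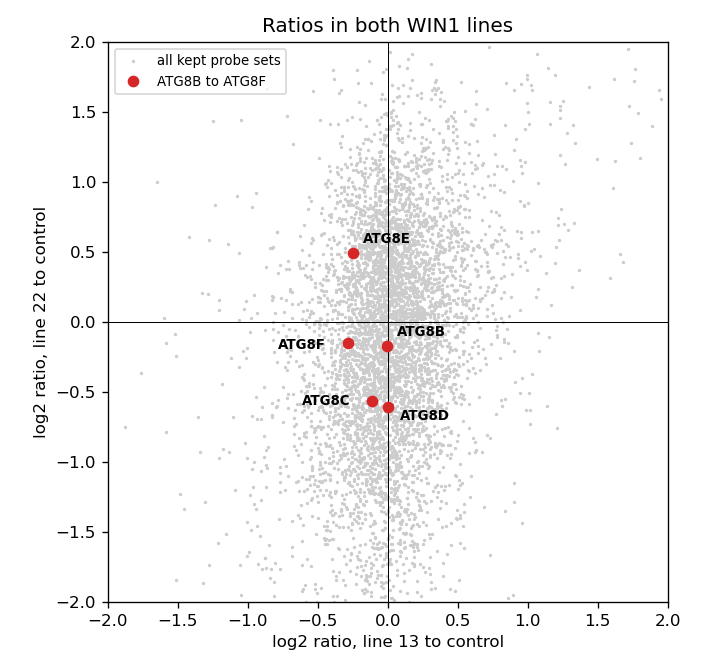
log2 ratio to the control of line 13 (x axis) against line 22 (y axis) for the kept probe sets (grey, 264 of 5773 lie outside the axes) and the 5 ATG8 members (red). The members lie inside the grey cloud, between -0.28 and 0.0045 on the x axis and between -0.60 and 0.49 on the y axis; both ratios use the same control array.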

How the data were processed

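The values analysed were linear intensities, 1 per probe set and array, as deposited by the authors; how the probes of a set were summarised is not given in the sources used here. Chip lot and scan session were shared by all 3 arrays, per the file headers. Scaling to one mean, trimmed by 2% at each end, used factors of 0.981 (line 13), 1.40 (line 22) and 0.788 (control). Negative values were set to 0, log2 was taken after adding a pseudocount of 18.6 (20th percentile of positive values), and probe sets above the 30th percentile of mean log2 value were kept. WIN1 was tested against the control with limma 3.58.1 in R 4.3.3 (lmFit, eBayes with trend, two-sided, Benjamini-Hochberg over 5773 probe sets). The fit has 1 residual degree of freedom, from the spread between the lines, against a median of 85.3 prior ones, so the fit takes the single control to be as variable as a line. The procedure was tested on simulated data in which all 3 arrays had equal noise. In the real data line 22 ratios spread more widely than line 13 ratios (SD 0.936 against 0.401). That simulation therefore does not show what the fit can resolve here. Genes were named from GEO's platform annotation (3794 probe sets with 1 gene, 70 with several, 4383 with none), matched by gene ID to RefSeq's TAIR10.1 table (3784 matched). No build is named in the files, so no coordinates are printed. Named were all members, the matched autophagy genes, the nearest gene to each member, the matched leaf markers and up to 3 genes of each other list. The members and gene lists were chosen with earlier results of these data known. Precision is limited throughout by having 3 arrays.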

Additional observations from a re-analysis of the deposited data

How the results depend on the processing

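No paired analysis was possible because 1 control array cannot be paired with 2 lines. All alternatives were planned. The counts of 0 ATG8 and 0 autophagy probe sets past limma were also 0 under every alternative scaling, pseudocount, floor, filter and eBayes setting, and limma has no residual degree of freedom once a line is left out. No ATG8 probe set was 2-fold from the control in both lines under any of them. The median ATG8 log2 ratio of -0.21 (mean over lines) became -0.78 on the deposited values, -0.034 with a common median and -0.14 after quantile normalization, and lay between -0.17 and -0.11 with 1 line left out. The autophagy median of -0.31 became -0.79 on the deposited values, -0.15 with a common median and -0.19 after quantile normalization. With a line left out, 2-fold could be counted only in the remaining line, which is a looser criterion than 2-fold in both. That count was 1 in line 22 (ATG4A; background 23.8%) and 0 in line 13 (background 2.74%). The count of members 2-fold apart between the lines was 1 on the deposited values and 1 with a common median, where the median difference was -0.21 instead of 0.17. The mean ratio changed sign for ATG8B with a common median (0.057) and after quantile normalization (0.068), and for ATG8E on the deposited values (-0.45), and after quantile normalization (-0.060). With 1 line left out, the ratio lay between -0.25 and 0.49 for ATG8E, between -0.60 and 0.0045 for ATG8D and between -0.91 and 0.25 for VPS38, with the other sign when line 22 was left out. Scaling by a factor moves the intensities of an array together by construction, which quantile normalization does not. With a pseudocount the ratios did not shift by equal amounts. From the deposited values to the trimmed mean, line 22 ratios went from -0.83 to -0.17 for ATG8B and from -0.33 to 0.49 for ATG8E. Other causes were not tested.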
